A study of Mus musculus with 35 samples.

Results

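Mest and 9 further imprinted genes, Peg3, Peg10, Plagl1, Zdbf2, Impact, Nnat, Sfmbt2, Igf2r and Grb10, were followed in single late 2-cell mouse embryos. They are 10 of the 54838 gene rows counted, found by Ensembl identifier through the GENCODE M21 annotation of GRCm38, and all 10 had a row. The genes were taken up because Mest was far lower in embryos given an antisense oligonucleotide against Dux than in control embryos, and the question was whether other imprinted genes moved with it. The set was thus chosen by the internal-read values of Mest in DUX-LOF against control embryos, and the values of all 10 genes in that comparison are given as a description without a test. The same oligonucleotide was also given to embryos that received dominant-negative SRF, and the tests below compare these with embryos that received SRF-DN alone. The genes were chosen with earlier results of all 4 groups known, so the p of Mest in that comparison is not independent evidence.

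All 35 embryos were F1(C57BL/6JxCBA/H), injected as zygotes 24 h after hCG, cultured in KSOM medium and collected singly at 48 h. The 9 control embryos received a scrambled antisense oligonucleotide, the 7 SRF-LOF embryos mRNA for a dominant-negative form of SRF (SRF-DN), the 9 DUX-LOF embryos the Dux antisense oligonucleotide, and the 10 double-LOF embryos both agents. No group received SRF-DN mRNA with the scrambled oligonucleotide, so double-LOF and SRF-LOF embryos differ both in the Dux oligonucleotide and in having received any oligonucleotide at all. SRF-LOF and control embryos likewise differ both in SRF-DN and in the scrambled oligonucleotide, which only control embryos received. The labels give no litter, injection day or batch. A p-value here therefore sets a group difference against the spread of single embryos only, and does not cover differences between litters, days or batches. Smart-seq+5' gives internal fragments of polyadenylated transcripts and separate reads from transcript 5' ends, which were counted apart. The counts do not separate the maternal from the paternal allele.

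Imprinted genes are expressed mainly from the copy inherited from one parent, because DNA methylation laid down in the egg or sperm marks one copy at an imprinting control region. The protein UHRF1 and the methyltransferase DNMT1 copy that methylation at replication, and ZFP57, ZFP445, TRIM28 and DPPA3 protect it during the reprogramming that follows fertilisation. A smaller group of genes, among them Sfmbt2, is imprinted in the mouse without egg DNA methylation, through the histone mark H3K27me3 (non-canonical imprinting). Dux encodes a homeodomain transcription factor that switches on genes of the 2-cell stage, among them the Zscan4 family, and SRF is a transcription factor of cytoskeletal and growth-response genes.

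The start regions of Mest are shown because Mest carries the change, and that of Nnat because Nnat moved the other way in 5' reads. Counts are per gene in both read classes, so which start the reads of a gene came from was not tested. The windows are from RefSeq on GRCm38.p6 and run from 250 bases before to 50 bases after a transcript start on the plus strand, in lower case with every CG dinucleotide, the site of the methylation that marks imprints, in capitals. The upstream Mest window is chr6:30733256-30733555, the downstream Mest window is chr6:30737800-30738099, and the Nnat window is chr2:157559828-157560127.
Mest upstream start: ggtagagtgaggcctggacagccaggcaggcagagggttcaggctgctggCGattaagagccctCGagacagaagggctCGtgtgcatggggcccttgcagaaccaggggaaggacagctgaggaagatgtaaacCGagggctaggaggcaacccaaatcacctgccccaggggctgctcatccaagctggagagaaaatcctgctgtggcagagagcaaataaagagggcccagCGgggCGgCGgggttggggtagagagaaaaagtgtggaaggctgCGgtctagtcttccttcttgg
Mest downstream start: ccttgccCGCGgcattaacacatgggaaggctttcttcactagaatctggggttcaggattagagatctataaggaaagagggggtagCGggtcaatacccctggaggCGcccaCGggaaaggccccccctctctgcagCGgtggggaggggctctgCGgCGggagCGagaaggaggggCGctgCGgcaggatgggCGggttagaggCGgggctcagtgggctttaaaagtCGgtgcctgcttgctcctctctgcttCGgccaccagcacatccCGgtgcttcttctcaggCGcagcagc
Nnat start: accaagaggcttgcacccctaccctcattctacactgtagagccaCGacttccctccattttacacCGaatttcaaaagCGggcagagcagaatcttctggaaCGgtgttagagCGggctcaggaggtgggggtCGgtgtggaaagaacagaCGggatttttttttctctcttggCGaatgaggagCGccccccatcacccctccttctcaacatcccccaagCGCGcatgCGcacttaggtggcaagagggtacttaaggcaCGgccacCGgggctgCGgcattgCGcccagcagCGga
The downstream Mest window held 17 CG dinucleotides and the upstream one 8, against a median of 7 over 32851 windows of 27025 genes. Of all windows, 68.6% held fewer than the downstream one and 51.4% fewer than the upstream one. A further Mest window, chr6:30737803-30738102, not shown, also held 17. The downstream start lies in the region known to carry the maternal methylation mark of Mest. Of the 10 genes, 8 had at least 1 window, 13 windows in all, with 8 to 45 CG dinucleotides each.

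Libraries held 220921 to 2039475 internal gene counts and 505157 to 2343900 5' gene counts, with 12915 to 21863 genes detected by internal reads. Levels are counts per 1000000 gene counts (CPM), with the library size adjusted by TMM. Internal reads of Srf, which the injected mRNA can also give, were present at 97.04 to 1658 CPM in the 2 groups given SRF-DN and at 11.73 to 51.22 CPM in the others. They were higher in double-LOF than in SRF-LOF embryos, at 702 ± 505 (SD, n = 10) against 343 ± 235 CPM (SD, n = 7), with an edgeR adjusted p of 0.0444. In 5' reads of Srf the gap was larger, at 2676 ± 2011 against 665 ± 386 CPM (SD, same embryos). The fitted 5' difference was 2.01 ± 0.42 (log2, SE; edgeR adjusted p = 0.000602). The part of this Srf difference in the results was not tested. Internal reads of Duxf3, the row that GENCODE M21 gives for Dux, had a median of 7.96 CPM in control and 2.83 CPM in DUX-LOF embryos, where DUX-LOF 10 reached 117.2 CPM. Duxf3 reads did not pass the test in any comparison, and Duxf3 is a copy in a repeated array, so these counts do not check the oligonucleotide labels. Of 7 2-cell markers, 5 fell in double-LOF against SRF-LOF embryos, where 13.2% of all genes tested fell, and Tcstv3 and Duxf3 did not pass. The summed level of the 7 was 322 to 832 CPM against 970 to 5300 CPM. In DUX-LOF against control embryos 6 of the 7 fell, all but Duxf3, where 17.0% of genes passed in either direction, and the summed levels of 203 to 457 and 328 to 5400 CPM overlapped. Of 6 blood cell markers, Hbb-bs and Hbb-bt were at 0 in all 35 embryos, and the summed level was 38.2 to 118 CPM in double-LOF and 9.35 to 103 CPM in SRF-LOF embryos. Of those markers Lyz2 rose, by 2.45 ± 0.93 (log2, SE; adjusted p = 0.0444). The summed level of 5 cumulus cell markers was at most 26.3 CPM and that of 4 sperm markers at most 18.5 CPM in any embryo. The part of these markers in the results was not tested. On the first principal component, with 33.9% of the variance, SRF-LOF 3 and SRF-LOF 8 lay at -37.2 and -11.9, away from the other SRF-LOF embryos at 106.1 to 150.5. Double-LOF 7 lay at 110.0, and the other double-LOF embryos between -115.5 and 29.69. Control embryos ran from -85.97 to 111.8 and DUX-LOF embryos from -89.92 to -17.15. SRF-LOF 3, SRF-LOF 8 and DUX-LOF 10 are left out together below. DUX-LOF 10 lay within its group on this component, at -21.63, and stood apart in Duxf3. Double-LOF 6 and 7, also left out together below, had the fewest genes detected by internal reads, 13455 and 12915. Double-LOF 6 also had the fewest internal counts, at 220921. Double-LOF 7 had 588272, more than the 488787 of DUX-LOF 5.

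Mest, which encodes a membrane protein of the alpha/beta hydrolase fold and is expressed from the paternal copy, lies at chr6:30723547-30748465 on the plus strand. Its internal reads stood at a lowest of 99.65, a median of 119.6 and a highest of 161.4 CPM in SRF-LOF embryos. In double-LOF embryos the lowest was 2.941, the median 6.161 and the highest 25.28 CPM. Every SRF-LOF embryo was above every double-LOF embryo, with means of 128 ± 27.4 (SD, n = 7) and 8.49 ± 6.45 CPM (SD, n = 10). Mest fell by 3.98 ± 0.34 (log2, SE), a 15.8-fold lower level, with a 95% interval of -4.65 to -3.31 and an adjusted p of 6.31e-10 in edgeR's quasi-likelihood test over 11940 genes. Mest ranked 1 by adjusted p among those genes, and 22 genes that passed had a larger fall. In this comparison 27.5% of all genes tested passed an adjusted p of 0.05, 13.2% lower and 14.3% higher, and 1.23% had double-LOF embryos all below SRF-LOF embryos. In bulk RNA of a whole embryo, fewer transcribing cells and less RNA per cell cannot be told apart.

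In control embryos Mest had a lowest of 49.87, a median of 77.05 and a highest of 166.9 CPM, and in DUX-LOF embryos 1.753, 6.988 and 11.25 CPM. These groups did not overlap either, as for 0.570% of genes with DUX-LOF the lower, and the fitted difference was -3.75 ± 0.34 (log2, SE). It is the value that led to the choice of the genes. Without double-LOF 6 and 7, the double-LOF level was 6.03 ± 2.25 CPM (SD, n = 8), and Mest differed from SRF-LOF embryos by -4.38 (adjusted p = 1.47e-11). Mest showed no detectable change in either SRF-DN comparison, the first of which also differs in the scrambled oligonucleotide. Against control, SRF-LOF embryos differed by 0.35 ± 0.31 (log2, SE; 95% interval -0.27 to 0.96, adjusted p = 0.477), and against DUX-LOF, double-LOF embryos differed by 0.12 ± 0.34 (-0.54 to 0.78, adjusted p = 0.983). The background for these comparisons was 1.67% and 0.00838% of genes passing. The direct test asked whether the oligonucleotide difference changed with SRF-DN, and the comparison that led to the choice is 1 side of it. That side sets the Dux oligonucleotide against a scrambled one, and the other side sets it against none. The test gave -0.23 ± 0.46 (log2, SE) with an adjusted p of 0.911. In edgeR or in DESeq2 0 of 11940 genes passed it, while 822 and 1031 did at an unadjusted p under 0.05.

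**Figure D1:**
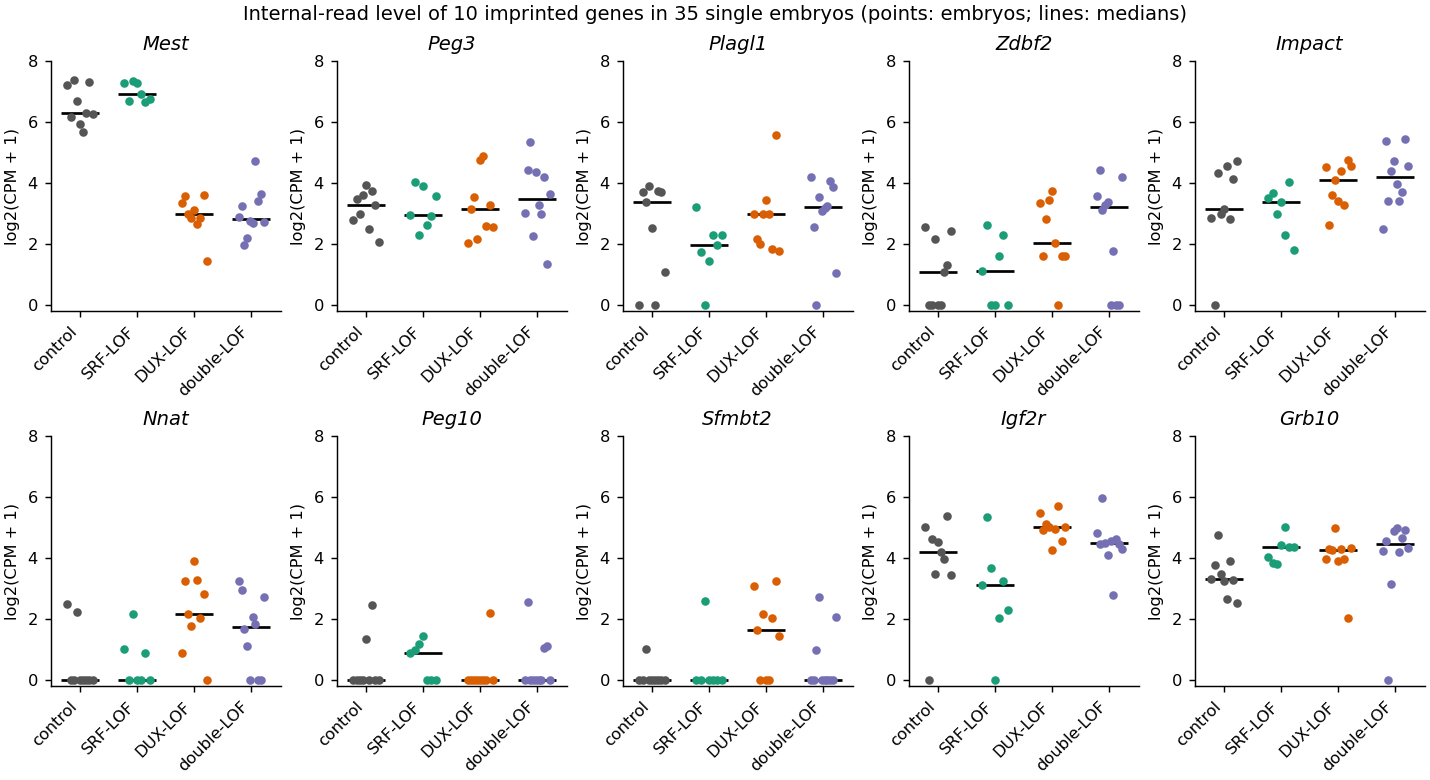
Internal-read level, as log2(CPM + 1), of the 10 imprinted genes in each embryo of the 4 groups, with points for embryos and lines for group medians. Mest separates the groups with the Dux oligonucleotide (highest embryo 25.28 CPM) from those without (lowest embryo 49.87 CPM), and the groups of the other 9 genes overlap.

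The 5' reads, which come from the same embryos and are not a second set of replicates, gave Mest 80.7 ± 18.4 CPM (SD, n = 7) in SRF-LOF and 7.86 ± 4.66 CPM (SD, n = 10) in double-LOF embryos. The groups again did not overlap, as for 1.35% of genes with double-LOF the lower, and Mest fell by 3.34 ± 0.35 (log2, SE; adjusted p = 4.24e-08) where 27.2% of 11749 genes tested passed. In control and DUX-LOF embryos the 5' levels were 67.2 ± 24.9 and 8.81 ± 3.79 CPM (SD, n = 9 each), again without overlap, as for 0.664% of genes. The ratio of 5' to internal CPM had a median of 0.704 in control embryos, and the medians with SRF-DN, with the Dux oligonucleotide and with both were 0.6, 1.18 and 1.14. It ranged from 0.251 to 5.41 in DUX-LOF embryos, where Mest rests on 84 internal and 81 5' counts in all.

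**Figure D2:**
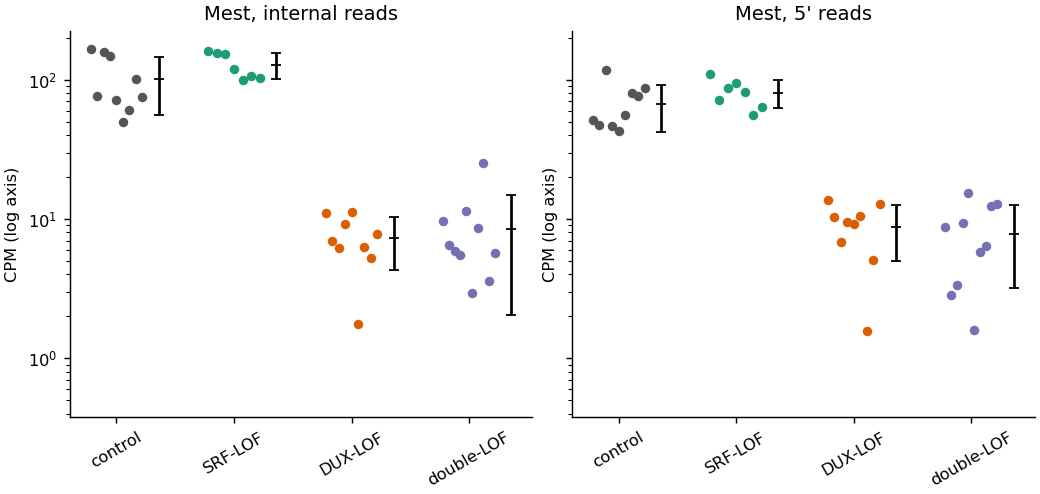
Mest level in CPM on a log axis in each embryo, by internal reads at left and 5' reads at right, with mean ± SD beside each group. In both read classes the DUX-LOF and double-LOF embryos lie below all control and SRF-LOF embryos, at up to 25.28 CPM by internal reads and up to 15.39 CPM by 5' reads.

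The order of the genes by level was taken per kilobase of exon. In control embryos Mest led with 25.6 ± 11.4 CPM per kb (SD, n = 9). Impact followed at 2.41 ± 1.73, Igf2r at 2.04 ± 1.32, Grb10 at 1.22 ± 0.7, Plagl1 at 0.938 ± 0.748 and Peg3 at 0.648 ± 0.282 CPM per kb. Nnat, Zdbf2, Peg10 and Sfmbt2 were at 0.504, 0.136, 0.102 and 0.0129 CPM per kb. From Impact downward, neighbours in this order did not differ beyond their SDs. In SRF-LOF embryos Mest led with 32.5 ± 6.94 CPM per kb (SD, n = 7) before Grb10 at 2.09 ± 0.694. In DUX-LOF embryos Mest held rank 5 with 1.85 ± 0.751 CPM per kb (SD, n = 9), behind Igf2r at 3.49 ± 1.07, Impact at 3.08 ± 1.44, Nnat at 2.88 ± 2.47 and Grb10 at 1.86 ± 0.79. In double-LOF embryos it held rank 4 with 2.15 ± 1.63 CPM per kb (SD, n = 10), and no neighbours in the order of these groups differed beyond their SDs down to Peg3.

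Of the 9 genes beside Mest, 5 passed the filter on low internal counts, and 0 of these 5 passed the test in double-LOF against SRF-LOF embryos, where 27.5% of all genes did. At an unadjusted p under 0.05 there were 2, Impact and Igf2r, and in DESeq2 Impact passed. The fitted values of the 5 ran from 0.07 to 1.40 (log2), where the median over all genes tested was 0.03. In 5' reads 6 of the 9 were tested, and 2 of them, Impact and Nnat, rose, where 27.2% of all genes passed. In the comparison of DUX-LOF with control embryos, which chose the set, the fitted values ran from 0.32 to 0.75 (log2) for the 5 in internal reads and from 0.15 to 2.71 for the 6 in 5' reads.

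Among the paternally expressed genes with known roles in growth, Peg3, a zinc finger protein at chr7:6703892-6730431, had 3.968, 6.781 and 15.59 CPM (lowest, median, highest) in SRF-LOF and 1.58, 10.16 and 40.19 CPM in double-LOF embryos. The groups overlapped, and the difference was 0.65 ± 0.50 (log2, SE; adjusted p = 0.343). In 5' reads it was 1.29 ± 0.57 (adjusted p = 0.0897), which did not pass. It passed in DESeq2 (1.38, adjusted p = 0.0442), with spike-in scaling (1.72, adjusted p = 0.0455) and without double-LOF 6 and 7 (adjusted p = 0.0459). In control and DUX-LOF embryos the internal medians were 8.76 and 7.898 CPM. The 5' means there were 3.65 ± 2.05 and 12.2 ± 9.19 CPM (SD, n = 9 each), a fitted 1.72 ± 0.56 (log2, SE). Without DUX-LOF 10 this value was 1.35. Plagl1, a zinc finger transcription factor at chr10:13060504-13131694, had a median of 2.954 CPM in SRF-LOF and 8.399 CPM in double-LOF embryos. It differed by 1.40 ± 0.76 (log2, SE; adjusted p = 0.169) in internal and by 0.21 ± 0.55 (adjusted p = 0.812) in 5' reads. In DUX-LOF embryos Plagl1 ran from 2.445 to 46.57 CPM, the highest in DUX-LOF 10. Against control the fitted value was 0.44 with that embryo and -0.42 without it, so its sign rested on 1 embryo.

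Impact, at chr18:12955852-12992950, encodes an inhibitor of the translation-control kinase GCN2. Its internal reads had 2.543, 9.352 and 15.37 CPM (lowest, median, highest) in SRF-LOF and 4.681, 17.43 and 42.66 CPM in double-LOF embryos. The higher median was with the oligonucleotide, the groups overlapped, and the difference of 1.21 ± 0.51 (log2, SE) did not pass (adjusted p = 0.074). It passed when SRF-LOF 3, SRF-LOF 8 and DUX-LOF 10 were left out (1.59, adjusted p = 0.0323), without control 4 (1.21, adjusted p = 0.043), SRF-LOF 3 (1.42, adjusted p = 0.0449) or double-LOF 4 (1.32, adjusted p = 0.0495) alone, and in DESeq2 (1.30, adjusted p = 0.0325). In 5' reads Impact rose by 2.53 ± 0.74 (log2, SE; adjusted p = 0.00978), from 1.57 ± 1.67 (SD, n = 7) to 10 ± 6.52 CPM (SD, n = 10). SRF-LOF embryos held 14 Impact 5' counts in all, and control embryos had 7.02 ± 6.71 CPM (SD, n = 9), close to the 7.99 ± 6.42 CPM (SD, n = 9) of DUX-LOF embryos. SRF-LOF and control embryos differed by -2.0 ± 0.74 in 5' reads (log2, SE; adjusted p = 0.112).

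Nnat, at chr2:157560078-157562522, encodes a small membrane proteolipid of the endoplasmic reticulum. It had 9 internal counts over all control, 5 over SRF-LOF, 64 over DUX-LOF and 36 over double-LOF embryos, too few for the filter. Counts were present in 2 of 9, 3 of 7, 8 of 9 and 7 of 10 embryos. The fit without a filter gave 2.01 ± 1.0 (log2, SE; adjusted p = 0.195) for double-LOF against SRF-LOF embryos. In 5' reads Nnat rose by 2.65 ± 0.92 (log2, SE; adjusted p = 0.0295), from 1.17 ± 1.13 (SD, n = 7) to 8.21 ± 8.0 CPM (SD, n = 10). That call was lost with the replicate block (2.13, adjusted p = 0.165), without SRF-LOF 3, SRF-LOF 8 and DUX-LOF 10 (2.46, adjusted p = 0.0588) and when SRF-LOF 4, SRF-LOF 5 or double-LOF 10 was left out alone (adjusted p up to 0.0596). In control and DUX-LOF embryos the 5' levels were 1.49 ± 2.14 and 9.86 ± 7.48 CPM (SD, n = 9 each). Nnat lies inside Blcap on the opposite strand for all 2445 of its bases, and the use of strand in the counting is not given in the sources used here. Reads of the pair may therefore not be told apart, and Blcap itself, at 115 to 153 CPM in group means, differed by -0.04 ± 0.28 (log2, SE; adjusted p = 0.926).

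Zdbf2, a zinc finger gene at chr1:63273265-63314576 known for its role in postnatal growth, Peg10, a retrotransposon-derived gene at chr6:4747306-4760517 needed for the placenta, and Sfmbt2, a Polycomb group gene at chr2:10370510-10595253, were too low for the test in both read classes. Zdbf2 had 14 internal counts over control, 15 over SRF-LOF, 52 over DUX-LOF and 75 over double-LOF embryos. Without the filter it differed by 2.02 ± 0.90 (log2, SE; adjusted p = 0.135) between double-LOF and SRF-LOF embryos. Peg10 had 6, 6, 7 and 8 internal counts in the 4 groups in that order, and all 7 of the DUX-LOF counts came from DUX-LOF 11.
Sfmbt2 had 2, 6, 30 and 13 internal counts in the same order, the 2 control counts in 1 embryo and the 30 DUX-LOF counts in 6 of 9 embryos. The ratio of DUX-LOF to control per unit of depth was 13.7, with a 95% counting interval of 3.48 to 119 that covers counting error only. Double-LOF and SRF-LOF embryos differed by 0.49 ± 1.04 (log2, SE; adjusted p = 0.846) without the filter. Sfmbt2 hosts a large cluster of repeated miRNA genes and is overlapped by Gm13261 for 3532 bases on the opposite strand.

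Igf2r and Grb10 are the genes of the set expressed mainly from the maternal copy in most tissues. Igf2r, at chr17:12682406-12769664, encodes the receptor that removes insulin-like growth factor 2, and had 0, 7.815 and 40.14 CPM (lowest, median, highest) in SRF-LOF and 5.881, 21.47 and 61.89 CPM in double-LOF embryos. The difference of 1.14 ± 0.55 (log2, SE) did not pass (adjusted p = 0.116). SRF-LOF 3 held 40.14 CPM while the next SRF-LOF embryo had 11.81 CPM. Without that embryo the difference was 1.99 (adjusted p = 0.00573), and without SRF-LOF 3, SRF-LOF 8 and DUX-LOF 10 it was 2.17 (adjusted p = 0.00483). The SRF-LOF embryos other than 3 and 8 lay at 106.1 to 150.5 on the first principal component. Control embryos lay there at -85.97 to 111.8, and SRF-LOF 3 at -37.2. The part of that component in the Igf2r values was not tested. In 5' reads the difference was 1.01 ± 0.62 (adjusted p = 0.231), and 1.93 (adjusted p = 0.0195) without SRF-LOF 3 and 2.78 (adjusted p = 0.00214) without SRF-LOF 3, SRF-LOF 8 and DUX-LOF 10. In internal reads SRF-LOF embryos differed from control by -0.81 ± 0.55 (log2, SE; adjusted p = 0.345), and by -1.66 (adjusted p = 0.0411) without SRF-LOF 3. Control and DUX-LOF embryos had medians of 17.3 and 31.56 CPM, with overlap. Airn, the antisense RNA at this locus, overlaps Igf2r for 28354 bases and had 132 internal counts over all 35 embryos, against 921 for Igf2r.
Grb10, an adaptor protein that restrains insulin signalling at chr11:11930508-12038683, had a median of 8.902 CPM in control embryos, and the medians with SRF-DN, with the Dux oligonucleotide and with both were 19.64, 18.17 and 21.08 CPM. Double-LOF and SRF-LOF embryos differed by 0.07 ± 0.42 (log2, SE; 95% interval -0.76 to 0.90, adjusted p = 0.919). With all libraries in the fit, 0 of the 6 tested genes of the set passed in SRF-LOF against control and 0 of 6 in double-LOF against DUX-LOF embryos by internal reads, in edgeR or DESeq2, and none had an unadjusted p under 0.05. In 5' reads 0 of 7 passed in each in edgeR, where 2.04% and 0.0170% of genes did, 1 (Impact) and 0 had an unadjusted p under 0.05, and DESeq2 called 1 of 7 in SRF-LOF against control embryos.

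**Figure D3:**
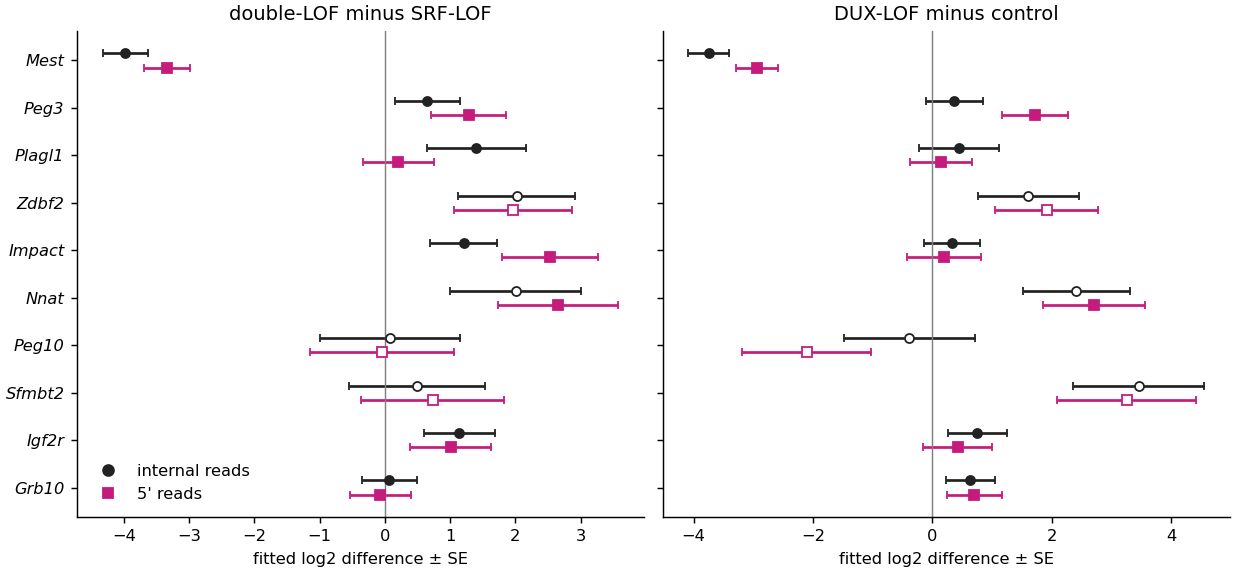
Fitted log2 difference ± SE of each of the 10 genes between double-LOF and SRF-LOF embryos at left, and between DUX-LOF and control embryos at right, for internal reads (circles) and 5' reads (squares). Open symbols are genes below the count filter. Mest lies at -3.98 and -3.34 at left, and the right panel, which chose Mest, is a description.

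The wider set of imprinted genes was described from lists of 22 other paternally expressed genes, 35 other maternally expressed genes and 17 genes of non-canonical imprinting. With the 10 genes above these are 84, of which 39 were tested in internal reads. In double-LOF against SRF-LOF embryos 4 rose and 7 fell, 28.2% of those tested beside 27.5% of all genes. Their median difference was -0.04 (log2) beside 0.03 over all genes. Between DUX-LOF and control embryos 2 rose and 7 fell, 23.1% of those tested beside 17.0% of all genes, and 1 of the 7 is Mest, by which the genes were chosen. In 5' reads 40 were tested, of which 5 rose and 6 fell, or 27.5% beside 27.2% of all genes, in double-LOF against SRF-LOF embryos. Between DUX-LOF and control embryos 4 rose and 5 fell by 5' reads, 22.5% beside 17.9%, Mest again among those that fell.

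Of 7 tested paternally expressed genes, 1 rose and 1 fell in double-LOF against SRF-LOF embryos, 28.6% beside 27.5% of all genes. Kcnq1ot1, the long antisense RNA that silences its neighbours in the Kcnq1 domain, had a median of 0.854 CPM in SRF-LOF and 12.62 CPM in double-LOF embryos, with 8 and 112 counts. It rose by 3.24 ± 0.76 (log2, SE; adjusted p = 0.00168), and by 1.84 ± 0.61 (adjusted p = 0.033) in DUX-LOF against control embryos. The latter call was lost without a count filter (adjusted p = 0.0508), with embryo number as a block (1.22, adjusted p = 0.3) and with spike-in scaling (adjusted p = 0.0592), and without control 2, control 9, DUX-LOF 7 or DUX-LOF 12 alone (adjusted p up to 0.0833). Kcnq1, on the opposite strand, also rose, by 1.5 ± 0.57 (adjusted p = 0.0444), a call lost in 4 of 9 alternatives and without SRF-LOF 3, 6, 7, 8 or 9 or double-LOF 1, 3, 4, 5, 7, 8 or 10 alone (adjusted p up to 0.0764), and the reads of the pair may not be told apart. Gpr1, the receptor gene next to Zdbf2, fell by 2.58 ± 0.53 (log2, SE; adjusted p = 0.00049) in double-LOF against SRF-LOF embryos, from 58.5 ± 42.4 (SD, n = 7) to 9.59 ± 3.61 CPM (SD, n = 10). It fell by 1.59 ± 0.53 (adjusted p = 0.0357) in DUX-LOF against control embryos, a call lost in 4 of 9 alternatives and without control 2, 5 or 8 or DUX-LOF 3, 7, 10, 11 or 12 alone (adjusted p up to 0.105). The most abundant that did not pass were Snrpn (-0.16 ± 0.32, adjusted p = 0.748), Usp29 (0.86 ± 0.38, adjusted p = 0.0861, passing in 3 of 9 alternatives and without SRF-LOF 3 alone, with adjusted p down to 0.0296) and Inpp5f (0.14 ± 0.34, adjusted p = 0.787).

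Of 20 tested maternally expressed genes, 2 rose and 5 fell, or 7 of 20 where 27.5% of all genes passed. Nap1l4, a histone chaperone gene, had 369.8 to 743.3 CPM in SRF-LOF and 108.1 to 236.8 CPM in double-LOF embryos. These groups did not overlap, as for 1.23% of genes with double-LOF the lower. Nap1l4 fell by 1.96 ± 0.22 (log2, SE, adjusted p = 1.25e-07), and by 1.10 ± 0.21 (adjusted p = 0.000415) in DUX-LOF against control embryos. Tssc4, from the same domain on chromosome 7, fell by 1.77 ± 0.41 (adjusted p = 0.00158) and 2.03 ± 0.40 (adjusted p = 0.000537). Tfpi2, a protease inhibitor gene, fell by 2.67 ± 0.67 (adjusted p = 0.00317) and 3.38 ± 0.71 (adjusted p = 0.00106) in these comparisons.
Calcr, the calcitonin receptor gene from the same chromosome 6 region as Tfpi2 and Peg10, went the other way. It had 4 counts over SRF-LOF and 80 over double-LOF embryos, and 7 over control and 78 over DUX-LOF embryos. Calcr rose by 3.78 ± 1.03 (log2, SE; adjusted p = 0.00593) and 3.48 ± 0.90 (adjusted p = 0.00657). H13, a signal peptide peptidase gene, fell by 1.52 ± 0.46 (adjusted p = 0.0132) in double-LOF against SRF-LOF embryos. The most abundant that did not pass were Blcap, Asb4 (-0.19 ± 0.32, adjusted p = 0.688) and Phlda2 (-0.81 ± 0.73, adjusted p = 0.43).

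Of 6 tested genes of non-canonical imprinting, 1 passed in double-LOF against SRF-LOF embryos, 16.7% beside 27.5% of all genes. Jade1, a subunit of a histone acetyltransferase complex, rose by 2.17 ± 0.61 (log2, SE; adjusted p = 0.00806), with medians of 9.352 and 67.04 CPM. Between DUX-LOF and control embryos the 1 that passed was Enc1, which fell by 2.68 ± 0.56 (adjusted p = 0.00104). The most abundant that passed in neither were Bbx, Gab1 and Flt1, with -0.58 ± 0.53, -0.91 ± 0.76 and 0.37 ± 0.41 in double-LOF against SRF-LOF embryos (log2, SE; adjusted p = 0.431, 0.391 and 0.528).

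**Figure D4:**
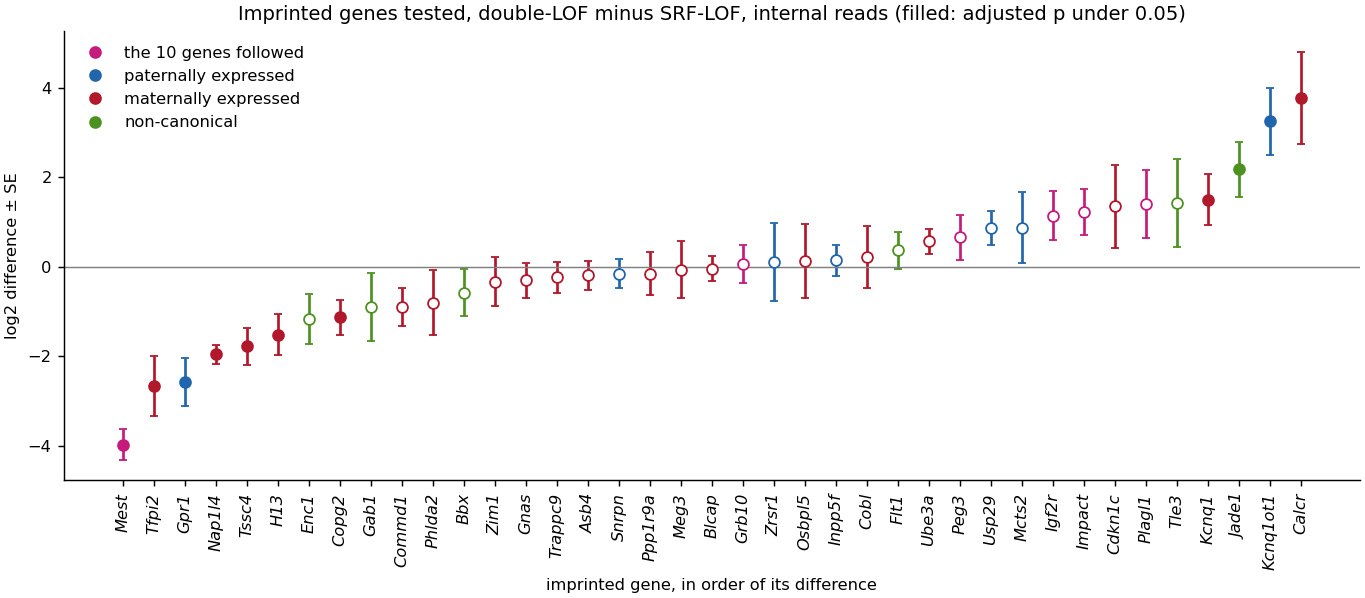
Log2 difference ± SE between double-LOF and SRF-LOF embryos for the 39 imprinted genes tested in internal reads, in order of the difference and coloured by list, filled where the adjusted p was under 0.05. Mest has the lowest value at -3.98, 4 genes rose and 7 fell.

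Among the 7 genes that protect imprints, all tested, double-LOF embryos had 3 higher and 2 lower than SRF-LOF embryos, 71.4% beside 27.5% of all genes, with a median difference of 0.25 (log2) beside 0.03. Dnmt1 rose by 1.22 ± 0.30 (log2, SE; adjusted p = 0.00298), Uhrf1 by 0.80 ± 0.28 (adjusted p = 0.0325) and Trim28 by 2.60 ± 0.43 (adjusted p = 3.77e-05). Uhrf1 lost its call in 4 of 9 alternatives, among them the fits without SRF-LOF 3, SRF-LOF 8 and DUX-LOF 10 and without double-LOF 6 and 7, and without SRF-LOF 3, 7, 8 or 9 or double-LOF 7 or 8 alone (adjusted p up to 0.0772). Dppa3, a maternal factor that guards egg-derived methylation, fell by 1.53 ± 0.27 (adjusted p = 9.59e-05), from 1965 ± 609 (SD, n = 7) to 680 ± 225 CPM (SD, n = 10). Zfp57, which reads methylated imprinting control regions, fell by 1.47 ± 0.36 (adjusted p = 0.00266). Dnmt1, Uhrf1 and Dppa3 also passed in DUX-LOF against control embryos, 42.9% of the 7 beside 17.0% of all genes. In that order the differences were 1.11 ± 0.28, 1.13 ± 0.27 and -1.42 ± 0.27 (log2, SE), with adjusted p of 0.00572, 0.00331 and 0.000309. Trim28 and Zfp57 did not pass in DUX-LOF against control embryos. Setdb1 and Zfp445 did not pass in either comparison, with 0.25 ± 0.31 (adjusted p = 0.564) and 0.20 ± 0.42 (adjusted p = 0.759) in double-LOF against SRF-LOF embryos. In SRF-LOF against control embryos 1 of the 7 rose in each read class. This was 14.3%, beside 1.67% of all genes by internal and 2.04% by 5' reads.

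Within 500 kb of Mest lie 13 protein-coding genes, of which 7 were tested. In double-LOF against SRF-LOF embryos 2 fell and none rose, where 13.2% of all genes fell and 14.3% rose. Copg2, a coat protein gene that runs toward Mest from the opposite strand and overlaps it by 912 bases, fell by 1.13 ± 0.39 (log2, SE; adjusted p = 0.0267), from 44.4 ± 22.8 (SD, n = 7) to 20.1 ± 11.2 CPM (SD, n = 10). Between DUX-LOF and control embryos it fell by 1.15 ± 0.38 (adjusted p = 0.0328). The first call was lost without a count filter (adjusted p = 0.059), with spike-in scaling (-0.68, adjusted p = 0.305), without double-LOF 6 and 7 (adjusted p = 0.0506), and without SRF-LOF 4 or 9 alone (adjusted p up to 0.0923). The second was lost without a count filter (adjusted p = 0.0585), with embryo number as a block (-0.70, adjusted p = 0.362) and with spike-in scaling (adjusted p = 0.103), and without control 2 or 8 or DUX-LOF 4, 6, 8, 11 or 12 alone (adjusted p up to 0.117). In 5' reads, which come from the other end of Copg2, the values were -0.89 ± 0.38 (adjusted p = 0.0745) and -0.40 ± 0.37 (adjusted p = 0.491), and the share of internal Copg2 reads in the overlap with Mest was not tested. Cep41, a centrosomal protein gene 29.8 kb away, fell by 1.09 ± 0.36 (adjusted p = 0.0215) in internal and 1.13 ± 0.40 (adjusted p = 0.0347) in 5' reads, with -0.32 ± 0.35 (adjusted p = 0.59) in DUX-LOF against control embryos. Its internal call was lost with only the groups compared in the fit (adjusted p = 0.0583), with spike-in scaling (-0.74, adjusted p = 0.244), and without SRF-LOF 4, 6 or 7 alone (adjusted p up to 0.0753). Cpa1, Tmem209, Klhdc10, Zc3hc1 and Ube2h, at 78.2 to 419 kb, did not pass in internal reads in either comparison. In 5' reads Ube2h rose by 0.76 ± 0.27 (adjusted p = 0.0335) in double-LOF against SRF-LOF embryos. The miRNA gene Mir335, inside Mest, had 0 internal and 2 5' counts over all embryos.

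**Figure D5:**
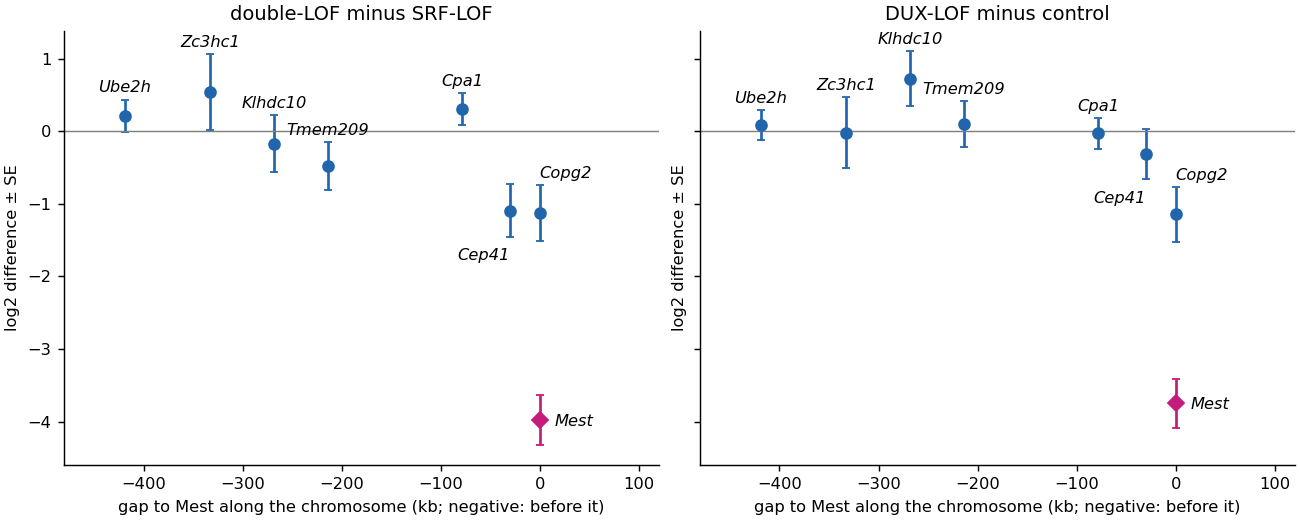
Log2 difference ± SE in internal reads of the 7 tested protein-coding genes within 500 kb of Mest, against their gap to Mest in kb, for double-LOF minus SRF-LOF at left and DUX-LOF minus control at right. Mest lies at -3.98 and -3.75, and Copg2, which overlaps it, at -1.13 and -1.15.

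The protein-coding genes whose 4 group means were most like those of Mest were sought among 9069 genes with a mean of at least 10 CPM, by the root mean square difference of the centred group means of log2(CPM + 1). They were AC140365.1 at 0.263, Zscan4f at 0.271, Zscan4e at 0.296, Gm7682 at 0.34 and Gm6502 at 0.409, against a median of 1.94 over all genes compared. The likeness is over 4 group means of 35 embryos and is a description. These genes are not imprinted genes of the lists used. All but Zscan4f had group means of 0.113 to 1.28 CPM in DUX-LOF and double-LOF embryos, against 24.8 to 70.1 CPM in the other groups. Those low means are near the 1 added before the logarithm, which makes their falls look smaller than in CPM. Mest had means of 7.29 and 8.49 CPM in DUX-LOF and double-LOF embryos. Zscan4f, a telomere and genome-activation gene of the 2-cell embryo, had 557.5 ± 695 CPM (SD, n = 9) in control embryos and 516 ± 382 CPM (SD, n = 7) with SRF-DN. With the Dux oligonucleotide it had 26.9 ± 18.4 CPM (SD, n = 9), and with both agents 44.9 ± 25.0 CPM (SD, n = 10). In control embryos the SD of each of the genes most like Mest, Zscan4f among them, exceeded its mean. That of Mest was 0.445 of its mean. Zscan4f and Zscan4e belong to a family of near-identical copies, among which the counting could divide reads in a way not given in the sources used here.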

How the data were processed

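Single-embryo Smart-seq+5' libraries of 35 late 2-cell mouse embryos were used in 4 groups taken from the labels. The authors deposited counts per gene from internal reads. The 5' end counts, which the authors deposited in a second table per embryo, were read with the unit expected counts, and rounding to whole numbers changed no value. The submitters' processing notes name STAR 2.7.11a and GRCm38. The counting tool, its use of strand, its treatment of reads with several positions and the annotation release are not given in the sources used here, and reads without molecular identifiers are not independent molecules. Identifiers were named by GENCODE M21.

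All groups entered 1 quasi-likelihood fit per read class in edgeR 4.0.16 (R 4.3.3) with TMM factors and filterByExpr, which left 11940 genes by internal and 11749 by 5' reads. Adjusted p is Benjamini-Hochberg over all genes tested, with a threshold of 0.05, and intervals are 95%. Repeat and spike-in rows were left out. The fits were tested on simulated data. Alternatives were DESeq2 1.42.0, DESeq2 size factors, spike-in scaling, no filter, fits of the compared groups only, a replicate block, the other read class and leaving out libraries. Libraries double-LOF 6 and 7, and the alternatives for 5' reads, were added after seeing the data.

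The 10 genes, lists and tests were chosen with earlier results of these data known. Beyond the 10, the text names list genes that passed in both oligonucleotide comparisons, up to 6 per list, the 3 most abundant per list that did not, tested genes within 500 kb of Mest, genes overlapping the 10, and the 5 most like Mest. Kcnq1, H13, Jade1, Enc1, Trim28, Zfp57, Srf, Duxf3, Lyz2 and Ube2h in 5' reads were named after their values were seen.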

Additional observations from a re-analysis of the deposited data

Results flagged for a closer look

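An embryo was set apart where its gap to the nearest other embryo of its group was large for the range of the group, by Dixon's critical value, and 13 of 40 combinations of gene and group were. For normally distributed values chance gives about 1 in 20, or 5%. CPM from low counts need not be distributed so, and all 13 were high values, so 5% may not be the rate here. Genes with mostly zero counts reach the criterion with 1 embryo. By internal reads, Mest was at 25.28 CPM in double-LOF 7, where the next embryo had 11.4 CPM. Peg3 was at 40.19 CPM in double-LOF 10, Plagl1 at 46.57 CPM in DUX-LOF 10, and Grb10 at 25.96 CPM in control 2 and 31.36 CPM in SRF-LOF 4. Igf2r was at 40.14 CPM in SRF-LOF 3 and 61.89 CPM in double-LOF 2. The others rest on 2 to 7 counts: Peg10 at 4.532 CPM in control 9, 3.644 CPM in DUX-LOF 11 and 4.875 CPM in double-LOF 9, Nnat at 3.518 CPM in SRF-LOF 7, and Sfmbt2 at 1.061 CPM in control 6 and 5.124 CPM in SRF-LOF 3.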

How the results depend on the processing

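The fall of Mest in double-LOF against SRF-LOF embryos passed in all 9 alternatives (-4.38 to -3.34, log2) and in all 35 fits without 1 embryo (-4.33 to -3.85). Mest was taken up with its values in these groups known, so these passes describe the processing only and are not independent evidence. Of the 10 genes, 1 passed in double-LOF against SRF-LOF embryos by internal reads. That number was 2 with DESeq2, 3 without SRF-LOF 3, SRF-LOF 8 and DUX-LOF 10, 3 with 5' reads, and 1 to 3 without 1 embryo. In SRF-LOF against control embryos 0 passed, 1 without those 3 embryos, and 0 to 1 without 1 embryo. The same comparison in 5' reads gave 0, with 1 in DESeq2, 2 without those 3 embryos and 0 to 1 without 1 embryo. In DUX-LOF against control embryos, which chose the set, numbers past the threshold are a description and say nothing of stability, since Mest was chosen by its value there. They were 1, 2 without a count filter and 3 by 5' reads, and the 3 became 1 with only the groups compared. The cause of these changes was not tested.

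Signs that turned belong to differences that did not pass. Mest in double-LOF against DUX-LOF embryos went to -0.32 without double-LOF 6 and 7, -0.14 in 5' reads, and ran from -0.23 to 0.22 without 1 embryo. Grb10 in double-LOF against SRF-LOF embryos went to -0.16 with the replicate block and -0.0688 in 5' reads, and without 1 embryo ran from -0.0364 to 0.22; its 5' value went to 0.00412 with only the groups compared, 0.42 with spike-in scaling and 0.16 without double-LOF 6 and 7, and from -0.33 to 0.10 without 1 embryo. Peg3 in SRF-LOF against control embryos went to -0.28 with spike-in scaling and ran from -0.13 to 0.24 without 1 embryo. In DUX-LOF against control embryos, without SRF-LOF 3, SRF-LOF 8 and DUX-LOF 10, Plagl1 went to -0.41 (internal) and -0.47 (5' reads) and Impact to -0.0895 (5' reads). Without 1 embryo they ran from -0.42 to 0.63, -0.46 to 0.38 and -0.0942 to 0.65. In double-LOF against SRF-LOF embryos Snrpn went to 0.23 without those 3 embryos and 0.16 in 5' reads, Inpp5f to -0.18 in 5' reads, and Blcap to 0.0346 in DESeq2 and 0.0361 with its size factors. Without 1 embryo Snrpn ran from -0.24 to 0.0284, Asb4 from -0.38 to 0.00156, Blcap from -0.20 to 0.11 and Zfp445 from -0.0053 to 0.34.

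Of 41 same-numbered pairs of embryos from different groups, 17 correlated above 0.1 (r from -0.57 to 0.55). The best-correlated embryo of the other group bore the same number in 5 of 41 cases. No rate for differently numbered pairs was taken, so these values do not settle whether the numbers pair the embryos. With the replicate block Mest was -3.96 (adjusted p = 1.53e-07), Peg3 -0.00854, Zfp445 -0.0446 and the 5' values of Nnat 2.13 (adjusted p = 0.165) and Plagl1 -0.0808 in double-LOF against SRF-LOF embryos. Spike-in scaling moved the median of all genes in that comparison by 0.376 (log2), and 2210 genes passed, 1766 higher and 444 lower, against 3287, 1709 higher and 1578 lower. Mest was then -3.73, while Copg2, Cep41 and Zfp57 no longer passed, and Snrpn, Asb4 and Blcap went to 0.11, 0.28 and 0.32. In DUX-LOF against control embryos spike-in scaling left 799 genes against 2026, with Nap1l4, Dnmt1, Kcnq1ot1, Gpr1 and Copg2 no longer passing. In SRF-LOF against control embryos it left 1 gene against 199. Depth limits Nnat, Zdbf2, Peg10 and Sfmbt2, which hold 27 to 156 internal counts over all embryos.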
